A study of Mus musculus with 41 samples.

Results

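Small leucine-rich proteoglycans (SLRPs) of the bone matrix were examined through the 10 genes Dcn, Bgn, Aspn, Fmod, Lum, Prelp, Kera, Omd, Ogn and Epyc. They were chosen by gene symbol, with no measured value in the rule but with earlier results of these data known. All 10 were found among the 43346 gene rows of the count table. The series comprised RNA-seq of tibial diaphyses from 41 female mice, of which 12 were young, 13 were old + vehicle-treated and 16 were old + AP-treated, and addressed how bone changes with age and after clearance of senescent cells. All mice, the young controls included, carried the INK-ATTAC transgene on a C57BL/6 background. In this line a fragment of the p16Ink4a promoter drives a caspase fusion protein that the drug AP20187 (AP) dimerizes, so that AP acts only on cells in which that fragment is active. The young mice were 6 to 12 months old by their labels, of which the methods text gives the lower age, and were labelled as vehicle-treated. The old mice received vehicle or 10 mg/kg AP from 20 months of age for 4 months. The bones had been centrifuged to remove marrow before RNA was extracted.

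SLRPs are secreted proteins whose leucine-rich repeats bind collagen fibrils and regulate their assembly, diameter and spacing. Class I members (decorin, biglycan and asporin) include carriers of chondroitin or dermatan sulfate chains, class II members (fibromodulin, lumican, PRELP, keratocan and osteomodulin) can carry keratan sulfate or sulfated tyrosines, and class III holds osteoglycin and epiphycan. Several of them also bind growth factors of the TGF-β family. Biglycan and decorin are abundant in bone matrix, whereas fibromodulin, lumican, PRELP and keratocan are best known from tendon, cartilage and cornea.

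Sequencing depth lay between 37028959 and 75942717 counts per mouse, with a median of 47774880. Transcripts of Cdkn2a, which encodes p16Ink4a, averaged 0.596 ± 0.307 CPM (counts scaled to a common library size by TMM, mean ± SD) in young, 2.78 ± 2.02 in old + vehicle-treated and 1.75 ± 1.70 in old + AP-treated mice. The difference between the old groups did not pass the test (log2 fold change -0.67, SE 0.37, edgeR adjusted p = 0.265). Of 13 lists of cell type markers, only the cartilage list had a member that averaged under 0.1 CPM in any group (Matn1). The osteoblast list was abundant in all mice (summed level 3970 to 43445 CPM), and so were skeletal muscle markers (7002 to 107057 CPM), a tissue adjoining the tibia. Marrow and blood transcripts were present in all mice as well, with summed levels of 4710 to 32645 CPM for the neutrophil and 2027 to 22165 CPM for the erythroid list. The old + AP-treated mice 18 and 19 lay above all other mice for 6 of the 9 cartilage markers (Acan, Col9a2, Col10a1, Matn3, Hapln1 and Sox9). Acan, for instance, was at 259 and 194 CPM in them, against 2.17 to 35.5 in the other mice. The most abundant cartilage marker, Col2a1, was at 411 and 283 CPM and thus within the range of the other mice (82.3 to 2591), and Col9a1 was within it as well, while Matn1 was above it in mouse 18 only. These mice thus stood apart, and results that rest on them are given with and without them. The labels name no batch. The titles of the old mice are numbered 1 to 29 and those of the young mice 30 to 41, so that a batch following age and age itself cannot be told apart. Separate mice are the replicates, and in bulk RNA fewer cells of a type and less RNA per cell cannot be told apart.

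Of the 10 genes, 9 lie close to another member. On mouse build GRCm38, Dcn (chr10:97479500-97518162), Lum (chr10:97565501-97572703), Kera (chr10:97607205-97613688) and Epyc (chr10:97644068-97682454) follow each other on the plus strand, with 30379 to 47338 bases between neighbours. Aspn (chr13:49544443-49567557), Omd (chr13:49582766-49592609) and Ogn (chr13:49608071-49624500) do so with 15208 and 15461 bases between them. Prelp (chr1:133910304-133921414, minus strand) and Fmod (chr1:134037254-134048277, plus strand) are 115839 bases apart and point away from each other, and Bgn (chrX:73483602-73495933, plus strand) is alone. The Aspn, Omd and Ogn genes lie within the span of Cenpp, for which 6996 counts were found over all mice against 156115, 40177 and 163835 for the members. Because the strand setting of the counting was not given in the sources used here, reads of overlapping genes cannot be assigned with certainty.

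The promoters of the chr13 neighbours, which were all called lower with age, and of the chr1 neighbours, of which 1 was called higher and 1 not called, are shown because the ratios of neighbours given below include these genes. Each is the 250 bases before the transcription start given by RefSeq (GRCm38.p6), read 5′ to 3′ along the gene's strand. Capitals mark a match to 1 of 5 motifs (a TATA box, a CCAAT box, a GC box, an AP-1 site and a Runx site), searched on both strands with overlaps allowed and spelled out below.
Aspn: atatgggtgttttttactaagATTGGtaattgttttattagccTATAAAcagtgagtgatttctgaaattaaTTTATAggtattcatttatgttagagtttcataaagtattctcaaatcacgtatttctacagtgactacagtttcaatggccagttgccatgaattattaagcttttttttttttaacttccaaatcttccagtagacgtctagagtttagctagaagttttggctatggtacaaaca
Omd: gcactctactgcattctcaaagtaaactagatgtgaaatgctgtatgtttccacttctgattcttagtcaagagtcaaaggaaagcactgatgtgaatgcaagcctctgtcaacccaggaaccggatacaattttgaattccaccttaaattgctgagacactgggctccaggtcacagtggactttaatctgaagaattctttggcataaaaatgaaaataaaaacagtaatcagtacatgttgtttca
Ogn: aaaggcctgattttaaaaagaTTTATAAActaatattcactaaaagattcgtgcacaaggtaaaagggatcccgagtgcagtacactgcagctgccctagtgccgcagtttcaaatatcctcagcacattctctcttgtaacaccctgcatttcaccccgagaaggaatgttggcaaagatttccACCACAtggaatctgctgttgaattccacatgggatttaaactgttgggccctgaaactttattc
Prelp: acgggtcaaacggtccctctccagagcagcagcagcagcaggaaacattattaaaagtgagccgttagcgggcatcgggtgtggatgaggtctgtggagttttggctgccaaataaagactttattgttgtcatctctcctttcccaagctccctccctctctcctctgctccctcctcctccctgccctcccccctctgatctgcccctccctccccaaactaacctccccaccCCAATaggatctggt
Fmod: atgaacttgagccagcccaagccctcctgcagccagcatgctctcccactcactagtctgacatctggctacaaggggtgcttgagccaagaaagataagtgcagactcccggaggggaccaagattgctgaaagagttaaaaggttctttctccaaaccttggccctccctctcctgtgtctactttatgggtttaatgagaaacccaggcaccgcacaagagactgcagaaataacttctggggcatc
These windows are chr13:49544193-49544442 (Aspn), chr13:49582212-49582461 (Omd), chr13:49607765-49608014 (Ogn), chr1:133921402-133921651 (Prelp) and chr1:134037004-134037253 (Fmod). RefSeq entries were matched for 8 members (9 windows, since Epyc has 2), and Dcn and Lum were not matched. Aspn and Ogn held a TATA box, searched as TATAAA, which 12.4% of all 32851 RefSeq windows of this length held. The CCAAT box, searched by the letters of its name, was found in the windows of Aspn, Prelp and Kera and in 33.8% of all windows. Only the Bgn window held a GC box, searched as GGGCGG, against 32.7% of all windows. Only the Ogn window held a Runx site, searched as TGTGGT, against 14.05% of all windows. The letters of the AP-1 site, searched as TGANTCA, were in none of the member windows and in 6.75% of all windows, and Omd, Fmod and Epyc held none of the 5 motifs. The member windows had a median GC content of 42.0%, against 52.4% over all windows. These matches describe letters only, and binding was not measured.

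In young mice the transcripts, taken as CPM per kilobase of the gene length in the count table, ranked from Dcn (578 ± 106, SD, n = 12) through Bgn (316 ± 56.5) and Lum (210 ± 40.1) to Kera (2.45 ± 1.23) and Epyc (0.0911 ± 0.0788). Aspn (62.6 ± 17.5), Fmod (60.2 ± 26.2), Ogn (47.2 ± 13.03), Omd (21.8 ± 5.90) and Prelp (18.9 ± 5.67) lay between. The ranges of neighbours in this order were separate only for Lum above Aspn, Prelp above Kera and Kera above Epyc. Dcn nevertheless exceeded Bgn, and Bgn exceeded Lum, in 12 of 12 mice, whereas Aspn exceeded Fmod in 6 of 12 and Fmod exceeded Ogn in 7 of 12. The length listed for Bgn (6099 bases) is the longest of the 10 and lowers its level per kilobase. Epyc was close to the detection floor, with 710 counts over all mice and 0 to 181 in any mouse.

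**Figure D1:**
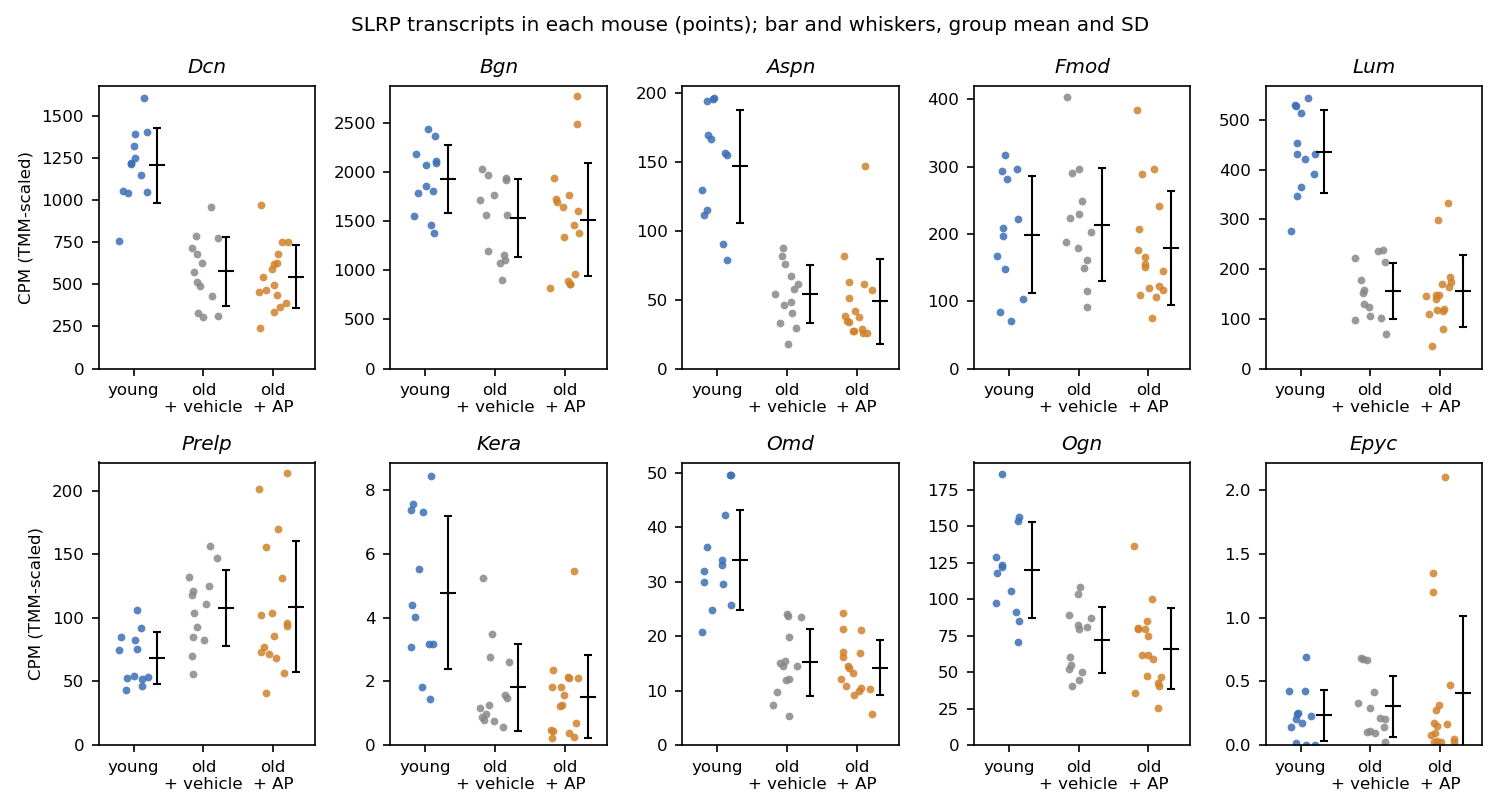
TMM-scaled CPM of each SLRP transcript (vertical axis, linear, from 0) in each mouse (points) of the young (n = 12), old + vehicle-treated (n = 13) and old + AP-treated (n = 16) groups, with the group mean and SD beside them (whiskers end at 0). Lum separates young from old + vehicle-treated mice completely, Prelp is shifted upward in the old groups, and Bgn, Fmod and Epyc overlap broadly.

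Old + vehicle-treated mice were compared with young mice to ask how these transcripts differ with age. Transcripts of 6 SLRPs fell (Dcn, Lum, Aspn, Kera, Omd and Ogn), Prelp rose, and Bgn, Fmod and Epyc did not pass the test. A gene was called at an adjusted p below 0.05 and a log2 fold change beyond 0.5 in either direction, by the quasi-likelihood test of edgeR, adjusted by the method of Benjamini and Hochberg over the 19292 genes that passed the filter on low counts, which all 10 members passed. By this rule 9.06% of all genes tested were called (4.3% higher and 4.76% lower). Over the 10 members the log2 fold change had a median of -0.90, against 0.0066 over all genes tested.

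Within class I, Dcn, which encodes decorin and binds collagen and TGF-β, ranged from 754 to 1608 CPM in young mice (median 1217) and from 305 to 959 CPM in old + vehicle-treated mice (median 573). All 13 old + vehicle-treated mice lay below the young median, and 10 lay below the lowest young mouse. The fitted level was 0.478 times that of young mice (log2 fold change -1.07, SE 0.18, edgeR adjusted p = 6.96e-05). Aspn encodes asporin, a relative of decorin that binds collagen and TGF-β and carries no typical glycosaminoglycan chain. Its level was 79.0 to 196 CPM in young mice (median 156) and 17.6 to 87.8 CPM in old + vehicle-treated mice (median 54.4). Only 2 of the 13 old mice reached the young range, and Aspn fell by 1.44 on the log2 scale (SE 0.25, edgeR adjusted p = 7.58e-05). Bgn, the third gene of the class, encodes biglycan, a major proteoglycan of bone matrix. It ranged from 1383 to 2443 CPM in young mice (median 1968) and from 905 to 2029 CPM in old + vehicle-treated mice (median 1566). These ranges overlapped in 8 of 13 old mice, and the difference was not called (log2 fold change -0.33, SE 0.17, 95% interval -0.67 to 0.0058, edgeR adjusted p = 0.179). With the level of the osteoblast markers as a covariate its direction turned (log2 fold change 0.13, edgeR adjusted p = 0.295).

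Class II moved in both directions. Lum, which encodes lumican, a regulator of fibril diameter, showed the clearest separation, from 276 to 544 CPM in young mice (median 432) against 69.9 to 238 CPM in old + vehicle-treated mice (median 153). The groups did not overlap, and the fitted level was 0.357 times that of young mice (log2 fold change -1.49, SE 0.21, edgeR adjusted p = 6.14e-06). Omd, which encodes osteomodulin, an acidic SLRP of mineralized tissue, went from 20.8 to 49.6 CPM in young mice (median 32.5) against 5.27 to 24.1 CPM (median 14.6). It fell by 1.16 on the log2 scale (SE 0.21, edgeR adjusted p = 1.05e-04), with 10 of 13 old mice below every young mouse. Kera, which encodes keratocan, a keratan sulfate carrier first known from cornea, was scarce in both groups, at 1.46 to 8.47 CPM in young mice (median 4.22) and 0.572 to 5.24 CPM in old + vehicle-treated mice (median 1.26). Kera fell by 1.40 on the log2 scale, with the largest SE of the called members (0.40, edgeR adjusted p = 0.0113).

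Prelp encodes a basic SLRP that can tether basement membranes and collagen and was the only member called higher with age. It ranged from 43.3 to 106 CPM in young mice (median 64.5) and from 55.9 to 156 CPM in old + vehicle-treated mice (median 111). The ranges overlapped, but 12 of 13 old mice lay above the young median and 7 above the highest young mouse. The fitted level was 1.58 times that of young mice (log2 fold change 0.66, SE 0.21, edgeR adjusted p = 0.0215). With the osteoblast covariate it was no longer called (0.61, edgeR adjusted p = 0.0569). Fmod, its neighbour on chr1, encodes fibromodulin, which shares collagen binding sites with lumican. It ranged from 70.6 to 317 CPM in young mice (median 203) and from 92.0 to 403 CPM in old + vehicle-treated mice (median 202), and was not called (log2 fold change 0.10, SE 0.25, 95% interval -0.38 to 0.59, edgeR adjusted p = 0.816).

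Of the class III genes, Ogn encodes osteoglycin, an SLRP of bone and connective tissue. It ranged from 70.9 to 186 CPM in young mice (median 120) and from 40.3 to 108 CPM in old + vehicle-treated mice (median 79.6). The groups overlapped in 7 of 13 old mice, yet all 13 were below the young median, and Ogn fell by 0.74 on the log2 scale (SE 0.20, edgeR adjusted p = 0.00682). This call was likewise lost with the osteoblast covariate (log2 fold change -0.48, edgeR adjusted p = 0.0791). Epyc, which encodes epiphycan of growth cartilage, ranged from 0 to 0.688 CPM in young and from 0.0219 to 0.685 CPM in old + vehicle-treated mice. No difference was detectable for Epyc at this depth (log2 fold change 0.39, SE 0.65, edgeR adjusted p = 0.724).

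**Figure D2:**
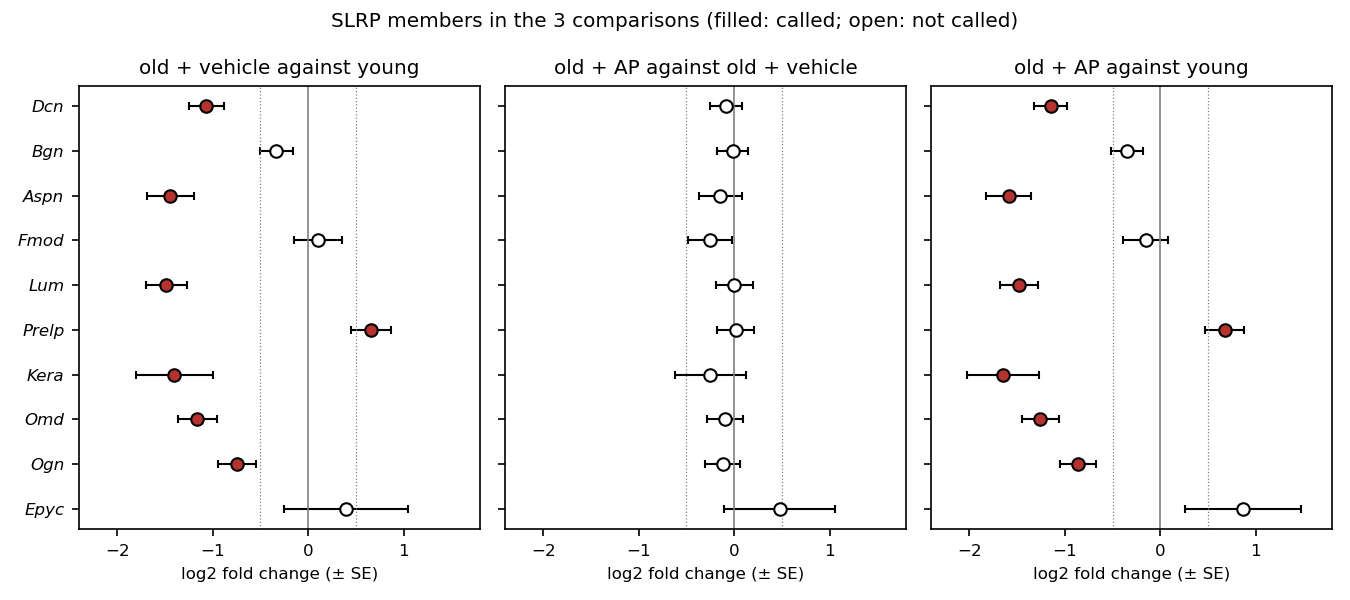
Log2 fold changes with SE (horizontal axis) of the 10 SLRP members in the 3 comparisons (panels), from the model of all 41 mice. Filled points were called, open points were not, and dotted lines mark log2 fold changes of -0.5 and 0.5. In both comparisons with young mice 6 members were called lower and Prelp higher, and none was called between the old groups.

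Old + AP-treated mice were compared with old + vehicle-treated mice to ask whether clearance of p16Ink4a-expressing cells changed these transcripts. None of the 10 members was called by edgeR, none had an unadjusted p under 0.05, and DESeq2 called none. Among all 19292 genes tested 0.0726% were called (0.0259% higher and 0.0467% lower), and 4620 had an unadjusted p under 0.05. The members' log2 fold changes ran from -0.26 (Fmod) to 0.48 (Epyc), with a median of -0.089 against -0.0037 over all genes.

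Lum, whose young and old + vehicle-treated ranges did not overlap, had a median of 147 CPM in old + AP-treated mice (44.4 to 333) against 153 CPM with vehicle. Its log2 fold change was 0.00022 with a 95% interval of -0.38 to 0.38. Larger changes of Lum in either direction thus lay outside the interval, and smaller ones within it. Dcn ranged from 238 to 973 CPM with AP (median 521), for a log2 fold change of -0.083 (-0.41 to 0.25). The Bgn range of 816 to 2780 CPM (median 1533) gave -0.015 (-0.33 to 0.30). In these abundant members the ranges of the old groups overlapped. Aspn, at 26.04 to 147 CPM (median 37.4), gave -0.14 (-0.59 to 0.30), and its highest value came from mouse 12, which also had the highest Dcn, Fmod, Ogn and Omd of the group. The interval was -0.71 to 0.19 for Fmod (75.1 to 384 CPM, median 153), -0.48 to 0.24 for Ogn (25.6 to 137 CPM, median 61.9) and -0.47 to 0.28 for Omd (5.65 to 24.2 CPM, median 13.7). For the scarce Kera (0.226 to 5.46 CPM, median 1.42) and Epyc (0.0205 to 2.10 CPM, median 0.158) the intervals were wider, at -0.98 to 0.49 and -0.67 to 1.62.

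The highest old + AP-treated values of Prelp came from the mice that stood apart. It ranged from 41.1 to 214 CPM in old + AP-treated mice (median 94.7), with 214 and 202 CPM in mice 18 and 19. Its log2 fold change against old + vehicle-treated mice was 0.015 (-0.36 to 0.39) with these mice and -0.19 without them, and it was called in neither case. Epyc was likewise highest in mouse 18 (2.10 CPM), and its log2 fold change turned from 0.48 to -0.46 without the pair.

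Against young mice, the control group that this comparison shares with the first, 7 members were called in old + AP-treated mice. Transcripts of Dcn (log2 fold change -1.15), Lum (-1.48), Aspn (-1.59), Kera (-1.65), Omd (-1.26) and Ogn (-0.86) were lower, with edgeR adjusted p from 1.77e-06 (Lum) to 0.00223 (Kera), and Prelp was higher (0.67, edgeR adjusted p = 0.0165). In this comparison 8.58% of all genes tested were called (3.73% higher and 4.85% lower), and the members' median log2 fold change was -1.004 against 0.017 over all genes. All 16 mice lay below the young median for Dcn, Lum, Aspn and Omd, and 14 lay above it for Prelp. The Prelp call rested on the mice that stood apart, since without mice 18 and 19 its log2 fold change was 0.47 (edgeR adjusted p = 0.0796). Without them 6 members were called, all lower.

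The summed level of the 10 transcripts was 4143 ± 589 CPM (SD, n = 12) in young, 2728 ± 699 CPM (n = 13) in old + vehicle-treated and 2634 ± 853 CPM (n = 16) in old + AP-treated mice. The shares of the members in this sum follow. Bgn made up 46.6 ± 5.65% of the sum in young mice, 56.5 ± 6.70% in old + vehicle-treated mice and 57.1 ± 9.02% in old + AP-treated mice. Dcn made up 28.99 ± 2.52%, 20.8 ± 3.73% and 20.99 ± 5.16%, and Lum 10.6 ± 1.59%, 5.59 ± 0.829% and 5.80 ± 1.38%. Prelp, a minor member, made up 1.64 ± 0.396%, 4.01 ± 0.808% and 4.41 ± 2.40%. Fmod made up 4.74 ± 1.83%, 7.83 ± 2.21% and 6.78 ± 1.94%, and Aspn 3.56 ± 0.944%, 1.97 ± 0.620% and 1.796 ± 0.585%. Ogn (2.94%, 2.66% and 2.51% on average), Omd (0.820%, 0.545% and 0.545%) and Kera (0.114%, 0.0663% and 0.0578%) were minor, and Epyc stayed below them. Dcn, Lum, Aspn, Ogn, Omd and Kera thus took smaller, and Bgn, Fmod, Prelp and Epyc larger, mean shares in both old groups. Without mice 18 and 19 the old + AP-treated means lay on the same side of the young means, at 59.5% for Bgn, 19.4% for Dcn, 5.77% for Lum, 6.56% for Fmod and 3.64% for Prelp. The mean share of Epyc went from 0.0169% to 0.00795% without them, against 0.00557% in young mice. The shares are descriptions and follow gene length as well as transcript number.

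Some neighbouring members changed by different amounts. Within each library the log2 ratio of counts (0.5 added) of adjacent genes was compared between groups by two-sided permutation tests (18 tests, 100000 resamples). The ratio of Prelp to Fmod averaged -1.45 ± 0.43 (SD) in young and -0.94 ± 0.30 in old + vehicle-treated mice, a difference of 0.51 (permutation p = 0.00234, adjusted p = 0.00842), with 13 of 13 old mice above the young median. Dcn to Lum rose from 1.47 ± 0.24 to 1.89 ± 0.23 (difference 0.42, adjusted p = 0.00306), so Lum fell further than Dcn in the same libraries, again with 13 of 13 mice above the young median. Omd to Ogn went from -1.82 ± 0.30 to -2.30 ± 0.34 (difference -0.48, adjusted p = 0.00369), whereas Aspn to Omd (difference -0.27, adjusted p = 0.156) and Lum to Kera (difference -0.038, adjusted p = 0.965) did not pass. Kera to Epyc differed by -2.34 (adjusted p = 0.00369), a value that depends on the added 0.5 because Epyc had 0 counts in 2 young mice. In old + AP-treated against young mice, the same controls, Prelp to Fmod (difference 0.72, adjusted p = 0.00306), Dcn to Lum (0.39, adjusted p = 0.0235) and Kera to Epyc (-2.35, adjusted p = 0.00900) passed. There Omd to Ogn did not pass (-0.37, adjusted p = 0.109), nor did Aspn to Omd (-0.42, adjusted p = 0.0936) or Lum to Kera (0.34, adjusted p = 0.485). Mice 18 and 19 decided 2 of these outcomes. Without them Dcn to Lum no longer passed (0.31, adjusted p = 0.0649) and Omd to Ogn passed (-0.50, adjusted p = 0.0133), while Prelp to Fmod (0.59, adjusted p = 0.00477) and Kera to Epyc (-1.99, adjusted p = 0.0235) passed in either case. Between the old groups none of the 6 ratios passed, with adjusted p from 0.3 to 0.984, and none did without mice 18 and 19 (0.31 to 0.911).

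The members also varied together among mice of the same group. Over the 41 mice, after each group's mean log2 CPM had been subtracted, 33 of the 45 pairs were correlated at an adjusted p below 0.05 (two-sided permutation tests within groups, 100000 resamples, Benjamini-Hochberg over the 45 pairs). The median Pearson r was 0.55 and the range -0.16 to 0.84. Pairs among all genes tested were not examined in this way, so these values do not set the members apart. For the 6 adjacent pairs the median was 0.66 (0.44 to 0.77), and for the 35 pairs on different chromosomes it was 0.55 (-0.16 to 0.84), a difference that was not tested.

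The highest r of all pairs joined genes on different chromosomes, Fmod and Aspn (r = 0.84, Spearman's rho = 0.84, permutation p = 1e-05 for each, the smallest these resamples can give, adjusted p = 4.09e-05). It was 0.82 without mice 12 and 38, the farthest from the median, and 0.85 within the young group, 0.84 within the old + vehicle-treated group and 0.89 within the old + AP-treated group. Aspn and Ogn, on the same chromosome, gave r = 0.83 and rho = 0.82 (permutation p = 1e-05 for each, adjusted p = 4.09e-05), and 0.80 without mice 12 and 23. Dcn and Lum gave r = 0.77 and rho = 0.78, and Prelp and Fmod gave r = 0.76 and rho = 0.79, with the same p. Without the 2 farthest mice these were 0.72 and 0.76. Values without the 2 farthest mice, here and below, kept the group means taken over all mice. The second pair gave 0.85 without mice 18 and 19, with group means taken again. Prelp and Fmod, whose ratio differed with age, rose and fell together from mouse to mouse within groups.

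Of the 3 members with the highest level per kilobase, Bgn had the lowest median r with the other members (0.41, against 0.58 for Dcn and 0.68 for Lum). Its r was 0.68 with Lum (rho = 0.68, adjusted p = 4.09e-05, 0.65 without mice 10 and 24) but 0.064 with Prelp (rho = 0.089, adjusted p = 0.746) and 0.092 with Kera (rho = 0.020, adjusted p = 0.640). The Bgn and Lum relation differed in size among groups, at 0.075 in young, 0.80 in old + vehicle-treated and 0.71 in old + AP-treated mice, and this difference was not tested.

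**Figure D3:**
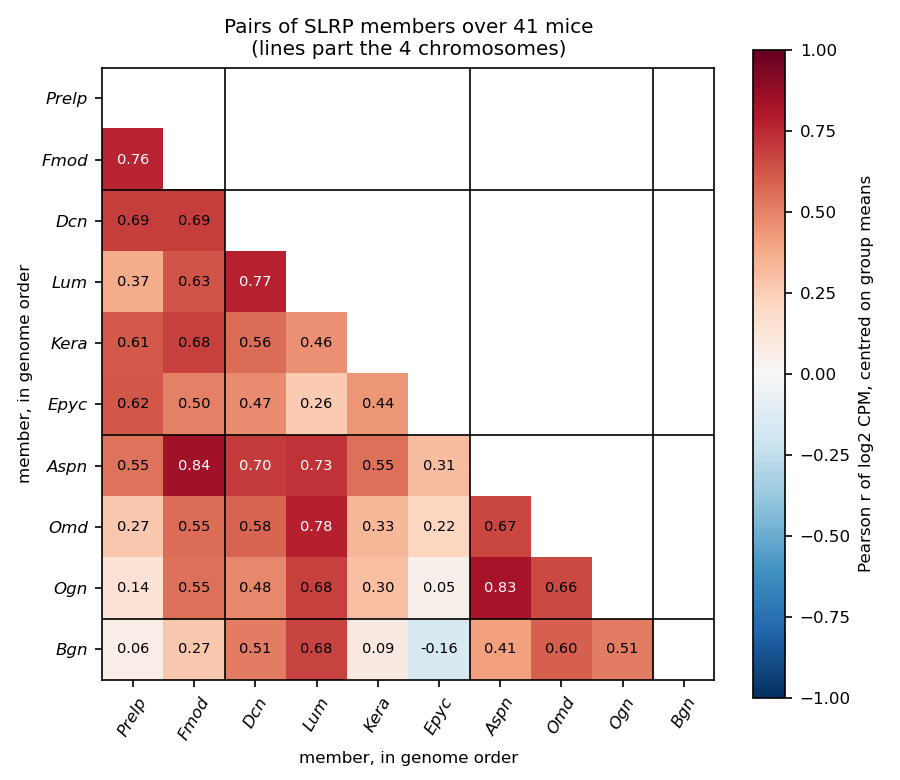
Pearson r of log2 CPM, centred on group means, for the 45 pairs of SLRP members over 41 mice (colour and printed value), with members in genome order on both axes and lines between chromosomes. Values run from -0.16 (Epyc and Bgn) to 0.84 (Fmod and Aspn), and the pairs on different chromosomes span the range of the neighbouring pairs.

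The same centred values were set against the mean log2 CPM of 6 marker lists (60 relations, adjusted together). Bgn followed the osteoblast markers (r = 0.93, rho = 0.92, permutation p = 1e-05, the smallest possible, adjusted p = 4.62e-05), at 0.94 without mice 24 and 27 and 0.90 to 0.94 within the 3 groups. Fmod followed the tendon markers (r = 0.92, rho = 0.91, adjusted p = 4.62e-05, 0.90 without mice 12 and 28), and its r with the osteoblast markers was 0.18 (rho = 0.11, adjusted p = 0.327). Aspn (r = 0.85, rho = 0.89), Kera (0.76 and 0.74), Dcn (0.76 and 0.72) and Prelp (0.71 and 0.73) also followed the tendon list, each with an adjusted p of 4.62e-05 for r and 5e-05 for rho. Without mice 12 and 28 these r were 0.83, 0.73, 0.68 and 0.64. The relation was not particular to tendon, since with the fibroblast markers all 10 members passed by r (adjusted p from 4.62e-05 to 0.0352) and all but Omd by rho. Dcn had r = 0.78 and rho = 0.78 with the fibroblast list (0.72 without mice 16 and 28), Fmod 0.71 and 0.68, Prelp 0.68 and 0.70, Lum 0.67 and 0.68, and Aspn 0.65 and 0.68, whereas Bgn had 0.40 and 0.38. With the tendon list all 10 likewise passed by r and all but Bgn by rho, and r of Bgn (0.36, adjusted p = 0.0479) was 0.22 without mice 12 and 28 and -0.14 in young mice. Differences between the lists were not tested. Dcn, Lum, Omd and Ogn passed with both the osteoblast and the tendon list, by r and by rho. Lum had r = 0.72 (rho = 0.64) for osteoblast and r = 0.71 (rho = 0.70) for tendon markers (adjusted p = 4.62e-05 for each r), and 0.66 and 0.64 without the 2 farthest mice. With the osteoblast list Omd had r = 0.57 (rho = 0.49, adjusted p = 6.35e-04), Ogn 0.47 (rho = 0.38, adjusted p = 0.0150) and Dcn 0.46 (rho = 0.40, adjusted p = 0.0159), at 0.44, 0.44 and 0.46 without mice 24 and 27. With the tendon list Omd had r = 0.56 (rho = 0.49, adjusted p = 8.70e-04) and Ogn 0.63 (rho = 0.66, adjusted p = 1.87e-04), at 0.52 and 0.58 without mice 12 and 28. In young mice alone, however, r with the osteoblast markers was -0.14 for Lum, -0.23 for Omd and -0.68 for Ogn, against 0.80, 0.62 and 0.54 in old + vehicle-treated and 0.79, 0.74 and 0.65 in old + AP-treated mice, a difference that was not tested. With the cartilage list 5 members passed by r, and they are given with and without mice 18 and 19, the 2 farthest. The values without the pair kept group means that included it, so they are not r within groups of the remaining mice. Epyc had r = 0.67 (rho = 0.60, adjusted p = 4.62e-05) with all mice and 0.52 without the pair, and Prelp had 0.64 (rho = 0.60, adjusted p = 1.87e-04) and 0.49. Dcn went from 0.55 (rho = 0.70, adjusted p = 8.67e-04) to 0.61, Fmod from 0.37 (rho = 0.55, adjusted p = 0.0352) to 0.50 and Kera from 0.42 (rho = 0.42, adjusted p = 0.0306) to 0.44. Lum (0.34 to 0.58), Aspn (0.23 to 0.53) and Omd (0.27 to 0.44) passed by rho but not by r with all mice. By these values without the pair, Lum, Aspn and Dcn lay above Epyc and Omd lay below it, and these differences were not tested. With the erythroid list the only relations that passed were those of Ogn (r = -0.51, rho = -0.48, adjusted p = 0.00300, -0.39 without mice 17 and 19) and Aspn (r = -0.39, rho = -0.40, adjusted p = 0.0352, -0.31 without the same mice). With the skeletal muscle list Ogn passed (r = 0.43, rho = 0.40, adjusted p = 0.0159 and 0.0240), at 0.29 without mice 7 and 19, and Aspn passed by rho (0.41, adjusted p = 0.0184) but not by r (0.30, adjusted p = 0.114).

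**Figure D4:**
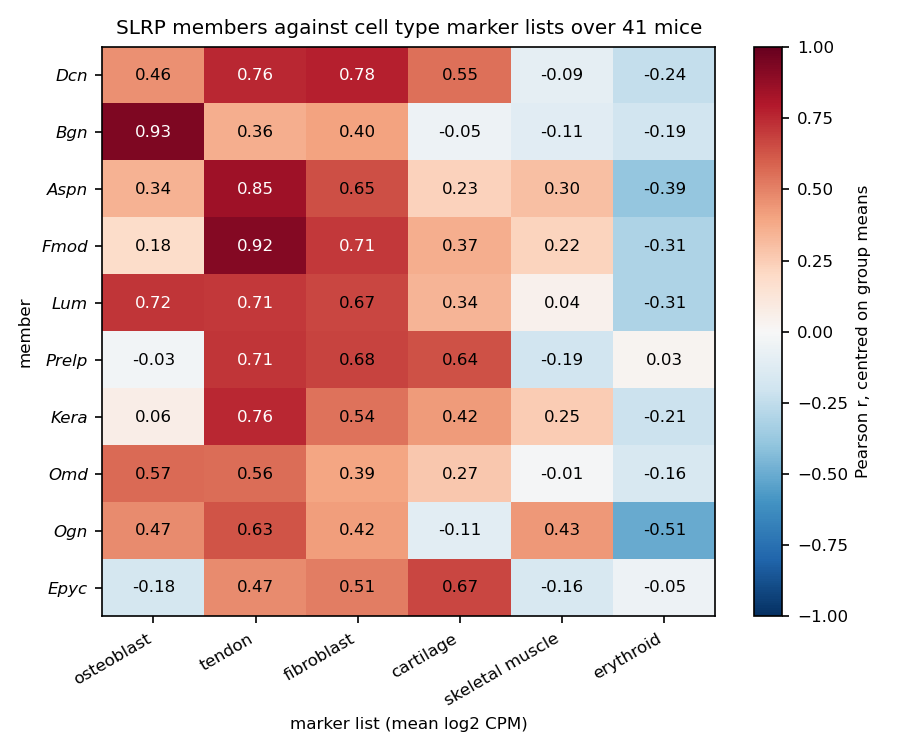
Pearson r, centred on group means, of each SLRP member (rows) with the mean log2 CPM of 6 marker lists (columns) over 41 mice. Bgn is highest with osteoblast markers (0.93) and Fmod with tendon markers (0.92), while values run from -0.19 (Prelp) to 0.43 (Ogn) with muscle markers and from -0.51 (Ogn) to 0.028 (Prelp) with erythroid markers.

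Genes of these lists also differed with age. Between old + vehicle-treated and young mice, 4 of 9 osteoblast markers were called lower, 1 of 6 tendon markers was called higher and 2 lower, and 2 of 8 fibroblast markers were called lower, against 4.3% called higher and 4.76% called lower over all genes tested. With lists of 6 to 9 genes these counts are descriptions. With the tendon list as a covariate, the 7 calls with age stood (Dcn -1.10, Lum -1.48, Aspn -1.42 and Prelp 0.69 on the log2 scale). With the osteoblast list as a covariate, 5 calls stood, and those of Ogn and Prelp were lost, as given above. Under the same covariate the log2 fold change of Bgn in old + AP-treated against young mice turned from -0.35 (edgeR adjusted p = 0.134) to 0.28 (edgeR adjusted p = 0.0390). With the tendon list that of Fmod in old + AP-treated against young mice turned from -0.15 (edgeR adjusted p = 0.690) to 0.38 (edgeR adjusted p = 0.0183). Both turned values had an adjusted p below 0.05 but lay within the fold-change threshold of 0.5, so that neither was called. Lum stayed lower with age under either covariate (-1.07 with the osteoblast list, edgeR adjusted p = 2.72e-05). Both covariates were added after seeing the data.

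Genes other than the 10 members with a mean of at least 1 CPM were ranked by their centred Pearson r with each member over the 41 mice (15532 genes). The 3 highest are named as a description, and some pairs of members had a higher r. For Bgn these were Pcdh18 (r = 0.95), Fndc3b (0.94) and Lhfp (0.94). Those of Fmod were Thbs4 (0.92), a matricellular protein of tendon and muscle and 1 of the tendon markers, Fndc1 (0.87) and Cilp2 (0.82), another tendon marker. Dcn was most like Abi3bp (0.89), Lrig3 (0.88) and Vit (0.87), and Lum was most like Pdgfrl (0.87), Bend6 (0.85) and Fam115a (0.85). Aspn was most like Dkk3 (0.87), Thbs2 (0.86) and Lrrc15 (0.85), while Ogn was most like Cnn3 (0.91), Itga8 (0.87) and Col8a2 (0.85). For Prelp the list was Cilp (0.86), a matrix protein of cartilage, Cdon (0.84) and Pcolce2 (0.84), which enhances procollagen processing. Kera was most like Angptl1 (0.74), the tenocyte marker Tnmd (0.72) and the SLRP relative Ecm2 (0.70). Omd (Tmem45a 0.77, Snai2 0.77, Tvp23b 0.76) and Epyc (Stk32b 0.79, Pcolce2 0.76 and Prg4, which encodes lubricin, 0.75) were listed in the same way. The highest r of Kera (0.74) was the lowest of the 10 members. Each r was chosen as a maximum.

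Genes with which SLRPs work were taken from 8 further lists, the collagens first, and their counts are set beside the 9.06% of all genes called with age. Of 11 fibrillar and fibril-associated collagens, 6 were called lower in old + vehicle-treated than in young mice and none higher (median log2 fold change -1.06). Col3a1, which encodes the collagen of pliable tissue and of repair, averaged 1499 CPM in young and 397 CPM in old + vehicle-treated mice (log2 fold change -1.92, SE 0.42, edgeR adjusted p = 0.00108). Col11a1, which nucleates thin fibrils, went from 2092 to 622 CPM with no overlap between the groups (-1.75, SE 0.29, edgeR adjusted p = 5.36e-05). In old + AP-treated against young mice, where 4.85% of all genes were called lower, 10 of the 11 were called lower, and the count was also 10 without mice 18 and 19.

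Among 8 enzymes that cross-link collagen or hydroxylate its lysines, 3 were called lower and none higher (median log2 fold change -0.28). Loxl2, a lysyl oxidase, averaged 181 CPM in young and 41.2 CPM in old + vehicle-treated mice, with no overlap (-2.13, SE 0.24, edgeR adjusted p = 5.15e-08). Plod2, the telopeptide lysyl hydroxylase, fell from 278 to 134 CPM, again with no overlap (-1.06, SE 0.20, edgeR adjusted p = 2.23e-04).

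Of each list of enzymes that build the sugar chains of SLRPs 1 gene was called, which does not set these lists apart from all genes. Of 22 genes for the linker and for chondroitin and dermatan sulfate, 1 was called, Chst3, a chondroitin 6-sulfotransferase (34.7 to 18.3 CPM, -0.92, SE 0.23, edgeR adjusted p = 0.00374), and the list's median log2 fold change was -0.056. Of 8 keratan sulfate genes 7 were tested and 1 was called, Chst1, a keratan sulfate 6-sulfotransferase, which rose from 2.25 to 5.49 CPM in 13 of 13 mice above the young median (1.29, SE 0.24, edgeR adjusted p = 2.30e-04) and was also higher in old + AP-treated mice (1.33, edgeR adjusted p = 1.12e-04).

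Other SLRP family genes were measured as well. Of 8 such genes 7 were tested and 2 were called lower, Ecm2 (33.2 to 22.6 CPM, -0.56, SE 0.18, edgeR adjusted p = 0.0222) and Nyx, which encodes nyctalopin (1.32 to 0.767 CPM, -0.78, SE 0.21, edgeR adjusted p = 0.00747). By edgeR with all mice the counts of the protease and ligand lists lay near or below the 9.06% of all genes called. These counts say nothing particular of the lists. Of 11 proteases that can cut SLRPs only Mmp2 was so called (466 to 264 CPM, -0.82, SE 0.22, edgeR adjusted p = 0.00568). DESeq2, and edgeR without mice 18 and 19, also called Tll1 and Gzmb, both higher. Of 15 ligands and receptors that SLRPs bind only Tgfb2, a TGF-β ligand, was called by edgeR with all mice (21.5 to 35.4 CPM, 0.72, SE 0.19, edgeR adjusted p = 0.00624). Both other settings also called Wisp1, which was lower. DESeq2 called 2123 of 22912 genes in this comparison, and the counts of these short lists are descriptions. Of 16 other matrix proteoglycans 13 were tested. The hyaluronan-binding Vcan (28.1 to 42.4 CPM, 0.59, SE 0.18, edgeR adjusted p = 0.0153) and Cspg4 (50.7 to 73.3 CPM, 0.53, SE 0.18, edgeR adjusted p = 0.034), known from pericytes, were called higher, and Esm1, an endothelial proteoglycan, was called lower (52.8 to 31.3 CPM, -0.76, SE 0.15, edgeR adjusted p = 5.53e-04). Hapln1, of the same list, was called lower by DESeq2 and by edgeR without mice 18 and 19, but not by edgeR with all mice. Between the old groups no gene of the 8 lists was called by edgeR or by DESeq2, and 0 to 6 genes per list had an unadjusted p under 0.05 by edgeR.

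**Figure D5:**
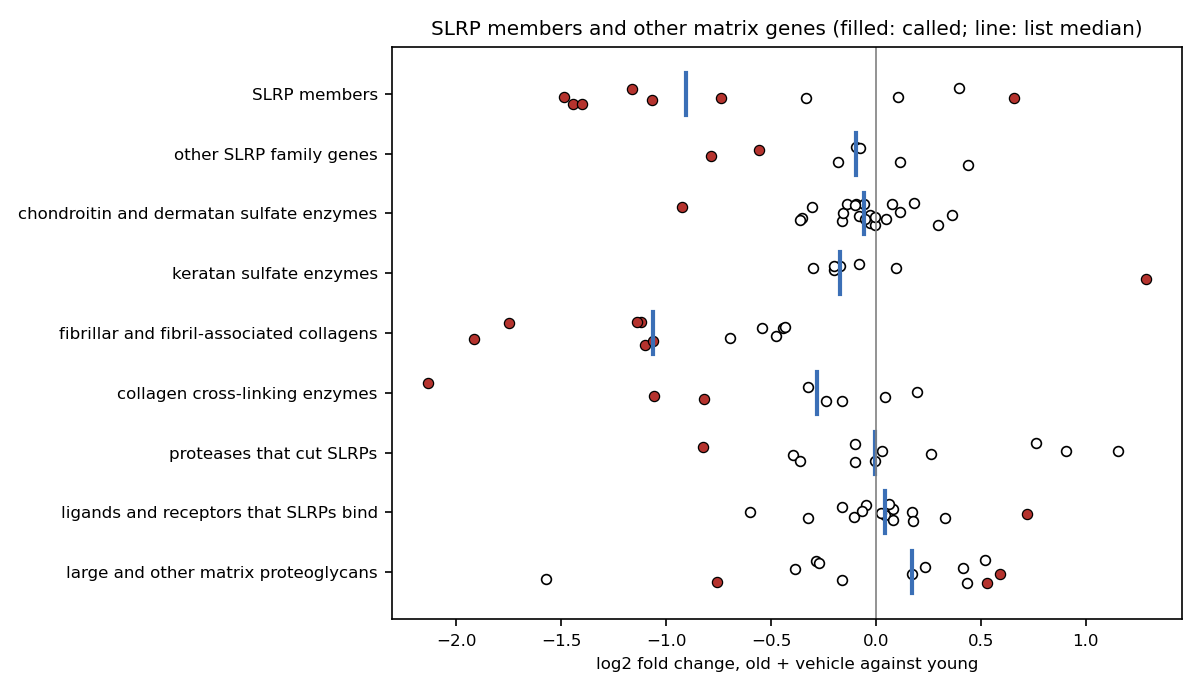
Log2 fold change with age, old + vehicle-treated over young (horizontal axis), of each tested gene (points) of the SLRP members and 8 matrix lists (rows), with called genes filled and the list median as a vertical line. The medians of the SLRP members (-0.90) and the collagens (-1.06) lie lowest, and the sugar chain enzymes lie close to 0.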

How the data were processed

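RNA-seq of tibiae from 41 mice was analysed from 1 table of raw counts per gene. The authors deposited these counts without normalization, with 1 column per mouse and the gene lengths and coordinates, and all columns were mapped to mice by their titles. The submitters' processing notes name TopHat2 2.0.6, HTSeq and GRCm38. The annotation release and strand setting were not given in the sources used here.

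Counts were normalized by TMM and tested by edgeR 4.0.16 (R 4.3.3), with its filter by expression, a quasi-likelihood fit of the 3 groups and Benjamini-Hochberg adjustment. Fold changes are on the log2 scale, their SE was taken from the F statistic, and CPM are counts scaled by TMM library sizes. DESeq2 1.42.0, its size factors, no filter, no fold-change threshold, models of 2 groups, marker covariates and leaving out each mouse were alternatives. Permutation tests used NumPy 2.4.6 (Python 3.11.15), and the scripts were tested on simulated data. Depth was 37028959 to 75942717 counts per mouse, and precision was limited by the spread between mice.

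The SLRP members, the 8 matrix lists and the 13 marker lists were chosen with earlier results of these data known. Named were all members, up to 2 genes called higher and 2 called lower per matrix list with the largest change with age, the 3 non-member genes most like each member, and Cdkn2a. Mice 18 and 19 were left out, and ratios of neighbours and marker relations were added, after seeing the data. Promoters were taken from RefSeq.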

Additional observations from a re-analysis of the deposited data

How the results depend on the processing

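The number of SLRP members called was 7, 0 and 7 in the comparisons of old + vehicle-treated with young, old + AP-treated with old + vehicle-treated and old + AP-treated with young mice. It was the same under DESeq2, its size factors, no filter, no fold-change threshold, models of 2 groups, and the muscle, blood and tendon covariates. With the osteoblast covariate it was 5, 0 and 5, and without mice 18 and 19 it was 7, 0 and 6. When each mouse was left out in turn the counts stayed at 7 to 7, 0 to 0 and 7 to 7, and no call of a member changed. The called values that no longer passed were those of Ogn (-0.48 and -0.50) and Prelp (0.61 and 0.60) against young mice with the osteoblast covariate, and of Prelp in old + AP-treated against young mice without mice 18 and 19 (0.47). The ratios of Dcn to Lum (0.31, no longer passing) and of Omd to Ogn (-0.50, now passing) in old + AP-treated against young mice also depended on mice 18 and 19. The cause was not tested. Over all genes, 14 were called between the old groups by edgeR and 204 by DESeq2, so that the background there depends on the tool. No paired analysis was possible because each mouse has its own number in the labels, and the replicate numbers within groups, given in accession order, pair no mice. Low counts limit what can be said of Epyc and Kera.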

Other observations

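The marker lists of cell types moved in several directions with age. In old + vehicle-treated against young mice, called genes among the 13 lists were 4 lower of 9 for osteoblasts (Bglap, Bglap2, Ibsp and Phex), 2 higher of 7 for osteocytes (Sost and Mepe), 1 higher and 2 lower of 6 for tendon (Thbs4 higher, Mkx and Cilp2 lower), 2 lower of 8 for fibroblasts (Pdgfra and Postn), 2 lower of 8 tested for cartilage (Col2a1 and Col9a1), 1 higher of 10 for skeletal muscle (Acta1), 1 higher and 1 lower of 6 for adipocytes (Plin1 higher, Adipoq lower), 3 lower of 7 for erythroid cells and 4 lower of 6 for B cells. Over all genes tested 4.3% were called higher and 4.76% lower. These counts are by edgeR with all mice. Without mice 18 and 19, Hapln1 was also called lower and Sox9 higher in the cartilage list, and DESeq2 called 5 of its 9 genes lower. Both of these settings called 4 of the 7 erythroid genes lower. None was called for osteoclasts (6 genes), endothelial cells (5), neutrophils (7) or macrophages (5) by edgeR, where 0, 1, 2 and 1 genes had an unadjusted p under 0.05, against 6141 of all 19292 genes tested. With so few genes per list these counts are descriptions. Between the old groups no gene of the 13 lists was called by edgeR, and DESeq2 called 1, the tendon marker Scx, lower. The cartilage list, with a median log2 fold change of 1.52 (-0.35 to 2.10) and 5 of 8 tested genes at an unadjusted p under 0.05 by edgeR, stood highest. Without mice 18 and 19 its median was -0.40 (-0.53 to 0.035) and no gene had an unadjusted p under 0.05. By DESeq2 with all mice its median was 0.010 (-0.43 to 1.09), and 2 of its 9 genes had an unadjusted p under 0.05. That median lay below those of the erythroid (0.40) and B cell (0.40) lists. In the other lists 0 to 2 genes had an unadjusted p under 0.05 by edgeR, against 4620 of all 19292 genes tested. Col1a1 stands in both the osteoblast and the collagen list, Col2a1 in the cartilage and collagen lists, Acan and Hapln1 in the cartilage and proteoglycan lists, and Col14a1 in the fibroblast and collagen lists.

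The osteocyte transcripts Sost, which encodes the Wnt inhibitor sclerostin (191 CPM in young and 332 CPM in old + vehicle-treated mice, log2 fold change 0.80, edgeR adjusted p = 0.044), and Mepe (182 and 329 CPM, 0.85, edgeR adjusted p = 0.0205) were higher with age. In the same comparison Bglap, which encodes osteocalcin, was lower (880 and 270 CPM, -1.71, edgeR adjusted p = 1.37e-04). Their relation from mouse to mouse was not tested. These marker genes were named after their values had been seen.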
